A study of Mus musculus with 3 samples.

Results

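The spots described here are those labelled fibre tracts (FB) in a spatial transcriptomics (ST) table of the mouse brain, chosen by that label alone. The authors had assigned it from stained images, a brain atlas and marker genes. They number 894 of the 8549 spots in the table, with 341 of 2881 in the CON section, 286 of 2828 in the RES section and 267 of 2840 in the SUS section. Each section is a 10 μm coronal slice from the left brain of 1 male C57BL/6J mouse of 8 weeks. RES and SUS animals were exposed for 10 days to chronic social defeat stress (CSDS), in which an aggressive CD-1 mouse attacks the animal daily, and were told apart by a social interaction ratio above (RES) or below (SUS) 1. The CON mouse met non-aggressive C57BL/6 mice instead, and tissue was taken 1.5 h after the last exposure. Because each condition is 1 section, condition, animal, section and library cannot be told apart, no test between conditions was possible, and every ratio between sections compares those sections only.

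White matter is made of bundles of axons, many of them wrapped in myelin, the membrane sheath laid down by oligodendrocytes. It holds oligodendrocytes, astrocytes, microglia and vessels but few neuronal cell bodies, where most of the messenger RNA of a neuron lies. In a coronal section through the hippocampus, such bundles form the corpus callosum under the cortex, the fimbria at the lateral ventricle, the internal capsule beside the thalamus, and the cerebral peduncle and optic tract near the hypothalamus. The table gives FB as 1 label and names no single tract.

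A Visium slide carries 4992 capture places in a hexagonal grid, and each captures the transcripts of the tissue above it, which can be several cells or parts of cells. Molecules are counted by unique molecular identifiers (UMIs), so that copies made by amplification are not counted again. In a spot, fewer cells and less RNA per cell cannot be told apart. For every spot the table gives its UMIs, its detected genes (those with at least 1 UMI) and 3 percentages, for transcripts of mitochondrial genes, of ribosomal protein genes and of red blood cell genes. Counts per gene were not analysed here, so the label could not be compared with myelin genes and was compared with position only. Values are medians over spots with their quartiles, and bounds called an interval are 95% order-statistic bounds, or exact Clopper-Pearson bounds for shares. They cover counting error among the spots of 1 section, neighbouring spots are not independent, and no difference between animals is covered.

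FB lay on the slide as a long curved band. In each of the 3 sections all FB spots formed 1 connected group on the grid, which began at the midline side between Isocortex and the hippocampus (HIP), arched sideways, and turned down past the lateral ventricle (LV) to end beside the hypothalamus (HY). FB spots touched 6 other regions in every section. In the CON section 52 of them touched the cerebral nuclei (CNU), 45 HIP, 45 Isocortex, 27 the thalamus (TH), 23 LV and 16 HY. The RES section had 42, 43, 41, 23, 21 and 18 such spots, and the SUS section had 40, 43, 41, 19, 18 and 20, in the same order of regions. The share of adjacent spots that were also FB was 80.0% for the CON bundle (interval 78.2 to 81.8). It was 79.0% for RES (76.9 to 80.9) and 77.8% for SUS (75.7 to 79.9). The bundle was thin. Only 142 CON, 122 RES and 99 SUS spots had 6 FB neighbours, and no FB spot lay more than 4 steps from the nearest other region in CON, or more than 3 in RES and SUS.

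**Figure D1:**
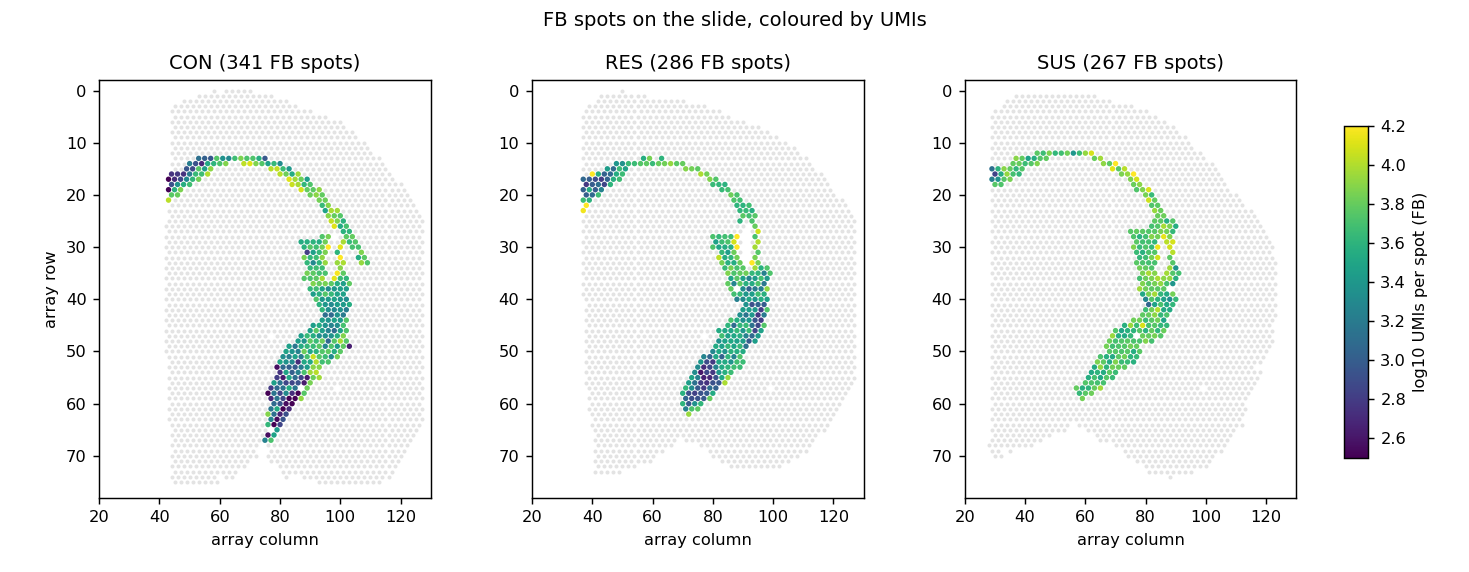
Map of the capture grid for each section (x, array column; y, array row), with FB spots coloured by the log10 of their UMIs and all other listed spots in grey. In CON and RES the darkest spots, with the fewest UMIs, lie at the midline end and in the lower end of the bundle, while the SUS bundle is more even in colour.

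FB spots captured less RNA than the rest of the tissue in all sections. They were 11.8% of the CON spots but held 3.91% of its UMIs, 10.1% and 3.66% in RES, and 9.40% and 4.54% in SUS. In CON the median FB spot had 3701 UMIs (quartiles 1977 and 5898, range 188 to 22425), against 13929.5 in the 2540 other spots. In RES it had 3522.5 UMIs (1806.25 and 4867.25, range 405 to 31434), against 10799. In SUS it had 5599 UMIs (4403 and 6840, range 683 to 15782), against 11712. The upper quartile of FB lay below the lower quartile of the other spots in each section (10140.8, 7789.75 and 8097 UMIs).

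The ratio of the FB median to that of the other spots was lowest in CON at 0.266 (interval 0.234 to 0.309). RES had 0.326 (0.289 to 0.365) and SUS 0.478 (0.454 to 0.508). Over the 3 sections the mean log2 ratio was −1.53 ± 0.43 (SD, n = 3), with FB lower in 3 of 3 sections. The exact sign-flip permutation test over sections gave a two-sided p = 0.25 (0.3 after Benjamini-Hochberg adjustment over 6 measures), and 0.25 is the smallest p that 3 sections allow.

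FB spots at the border of the bundle had fewer UMIs than the spots beside them. Set against the median of the other-region spots it touched, a CON border spot had a median of 0.494 times their UMIs (interval 0.452 to 0.557, 191 spots), and 169 of the 191 had fewer. In RES the median was 0.509 (0.464 to 0.553, 155 spots), with 132 lower. The SUS value was 0.594 (0.523 to 0.655, 158 spots), with 136 lower. Over all border spots the intervals of the 3 sections overlap. By touched region they did not all overlap: at CNU the ratio was 0.446 for CON (0.374 to 0.594) and 0.763 for SUS (0.624 to 0.870). At Isocortex SUS had the lowest value, 0.453 (0.378 to 0.530), against 0.481 in CON (0.364 to 0.618) and 0.511 in RES (0.428 to 0.842), and these intervals overlap.

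The difference went on inside the bundle in CON and RES. In CON the spots 1 step outside had a median of 10253 UMIs and those 2 steps outside 11933, while the outermost layer of FB had 5002. The corresponding medians were 8840, 11244.5 and 4467 in RES, and 10800, 13002 and 5809.5 in SUS. Deeper inside the bundle, CON had 2773 UMIs at 2 steps, 2243 at 3 steps and 1657 in the 12 spots at 4 steps. RES had 2482 at 2 steps and 2505 at 3. SUS had 5123 and 5483.5, which lie within the quartiles of its outermost layer (4564.75 and 7327.75).

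**Figure D2:**
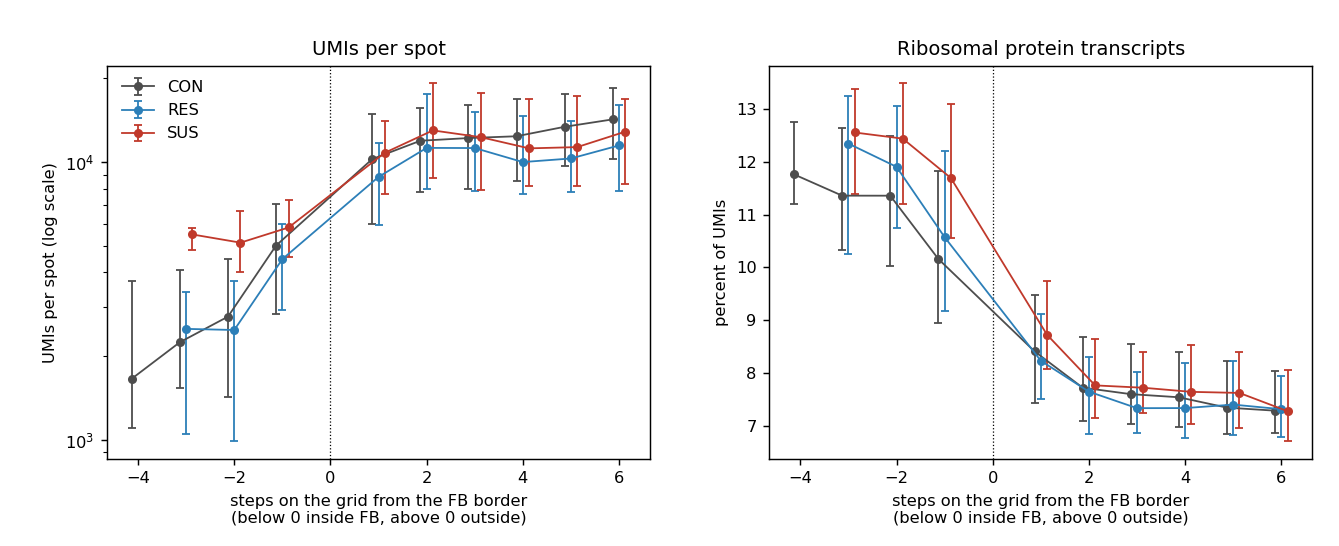
UMIs per spot (left, log scale) and percent of UMIs on ribosomal protein genes (right) against the number of grid steps from the FB border, with values below 0 inside FB; points are medians and bars the quartiles over spots, for CON (grey), RES (blue) and SUS (red). UMIs are higher and the ribosomal protein share is lower outside the border in all sections, and the SUS line is the flattest inside FB for UMIs.

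By the number of adjacent FB spots, no FB spot had 0 and only 1 CON and 2 RES spots had 1. In RES the medians were 6293.5 UMIs with 2 FB neighbours (22 spots), 5177 with 3 (51), 3795.5 with 4 (48), 3103 with 5 (41) and 2505 with 6 (122), each lower than the one before. In CON they were 4729 (11 spots), 5616.5 (60), 4158 (74), 4383 (53) and 2738.5 (142), so the spots with 6 FB neighbours were lower than each of the other counts, which had no steady order. In SUS they were 6314 (16 spots), 5876 (47), 5720 (60), 5556 (45) and 5374 (99), each lower than the one before but over a narrow range.

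Interior spots, with 6 FB neighbours, had 0.574 times the median UMIs of border spots, with 0 to 5, in CON (interval 0.436 to 0.741). Border spots by this count (199 CON, 164 RES and 168 SUS) include a few that touch no other region but lie beside an unlisted place. The RES ratio was 0.566 (0.378 to 0.741) and the SUS ratio 0.938 (0.809 to 1.04). The interval of SUS includes 1 and does not overlap those of CON and RES. Whether this difference exceeds that between animals was not tested.

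**Figure D3:**
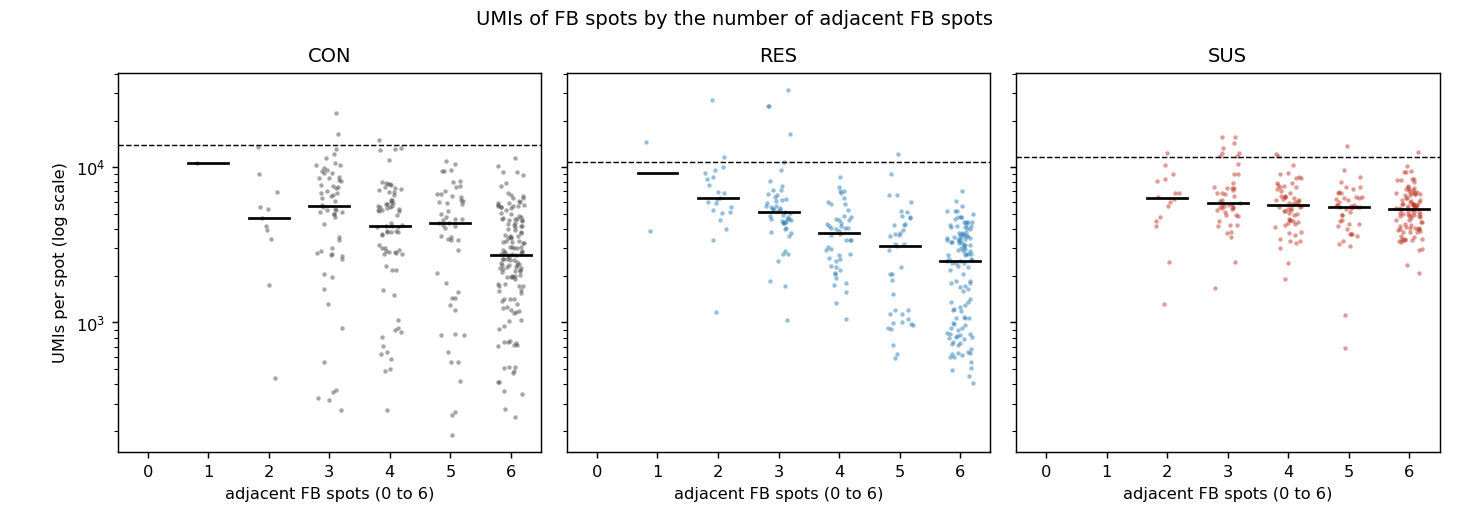
UMIs per spot (log scale) of every FB spot by the number of its 6 grid neighbours that are FB, for each section; points are spots, black bars their medians, and the dashed line is the median of all other spots of that section. The lowest points, below 1000 UMIs, are common in CON and RES and nearly missing in SUS.

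The region a spot touched went with its level. FB spots at LV were the richest in each section, with a median of 7869 UMIs in CON (quartiles 5857 and 11240), 6653 in RES (5571 and 10041) and 8487.5 in SUS (5649.5 and 10404.5). FB spots at HIP had medians of 6793 (CON), 4859 (RES) and 5880 UMIs (SUS). Those at Isocortex had 4729, 5177 and 6159, and those at CNU had 5238, 4577 and 5502. At TH the medians were 3448, 4009 and 5690. FB spots at HY were the poorest in CON, with 1356.5 UMIs (543.25 and 2344.25), and in RES, with 2610.5 (1962.25 and 3690.5). In SUS they had 5491.5 (3720.25 and 6740), next to the 5502 at CNU. An FB spot counts under every region it touches, and 17 CON, 31 RES and 23 SUS spots touched 2 regions and 1 RES spot touched 3.

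Along the bundle the lower end stood out. The rows that FB spans were divided into 5 bands of equal height, from band 1 under Isocortex to band 5 beside HY and CNU. The CON medians were 4749.5, 5389, 3053, 3004 and 1044.5 UMIs. The RES medians were 4282, 5156, 3732.5, 2885 and 1748.5. The SUS medians were 6129.5, 5806, 5737 and 5285, and 5170 in band 5. Band 5 was thus the poorest in all sections, by a wide margin in CON and RES and by little in SUS.

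In band 1, which follows the underside of Isocortex, the part nearest the midline was poor as well. Divided by columns into 3 parts of equal width, it had 2306 UMIs in the 39 CON spots of the part nearest the midline, 5420 in the next part and 6608 in the outer part. RES had 2382 in 36 spots, then 6261 and 4892. SUS had 5457 in 29 spots, then 6258 and 7926.

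Most spots below 1000 UMIs in CON and RES were FB spots. FB made up 49 of 60 such spots in CON, 40 of 42 in RES and 1 of 2 in SUS. As a share of FB this was 14.4% for CON (interval 10.8 to 18.5) and 14.0% for RES (10.2 to 18.6). For SUS it was 0.375% (0.00948 to 2.07). In CON 21 of the 49 lay in band 5, 13 in band 4 and 13 in the midline part of band 1. In RES 22 of the 40 lay in band 5, 8 in band 4 and 7 in the midline part. Interior spots were 20 of the 49 in CON, near their share of all CON FB spots (41.6%), and 32 of the 40 in RES, where they were 42.7% of FB. At the other end of the range, 3 CON, 8 RES and 13 SUS FB spots had more UMIs than the median of the other spots of their section, and all but 1 of these, a SUS spot, touched another region.

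Between sections, the FB median was 0.952 times that of CON in RES (interval 0.755 to 1.16) and 1.51 times in SUS (1.30 to 1.75). The other spots of the same sections had 0.775 (0.742 to 0.809) and 0.841 (0.804 to 0.884) times the CON median. SUS was 1.59 times RES in FB (1.42 to 1.83) and 1.08 times elsewhere (1.04 to 1.14).

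The size of the SUS ratio varied along the bundle and with the section it was set against. Among interior spots the SUS median was 1.96 times that of CON (interval 1.61 to 2.44) and among border spots 1.20 times (1.03 to 1.47). By bands it was 1.29 (0.936 to 1.86), 1.08 (0.867 to 1.42), 1.88 (1.23 to 2.42), 1.76 (1.29 to 2.15) and 4.95 (3.13 to 9.11) times CON. In spots touching HIP the ratio was 0.866 (0.721 to 1.31), at CNU 1.05 (0.762 to 1.58) and at LV 1.08 (0.587 to 1.77), and these intervals include 1. At Isocortex it was 1.30 (1.02 to 2.55), at HY 4.05 (1.32 to 13.4) and at TH 1.65 (1.05 to 2.45), and these intervals lie above 1. Against RES the SUS ratio was 1.19 at Isocortex (0.886 to 1.77), 2.10 at HY (0.984 to 3.46) and 1.42 at TH (0.876 to 2.19), with 1.21 at HIP (0.938 to 1.59), 1.20 at CNU (0.847 to 1.83) and 1.28 at LV (0.553 to 1.87), and all 6 intervals include 1. The spread of the ratio over touched regions was thus narrower against RES than against CON. By bands SUS was 1.43 (1.20 to 1.94), 1.13 (0.946 to 1.48), 1.54 (1.07 to 2.39), 1.83 (1.43 to 2.35) and 2.96 (1.63 to 6.15) times RES. Among interior spots SUS was 2.15 times RES (1.66 to 3.17) and among border spots 1.29 times (1.15 to 1.52). Without band 5 and the midline part of band 1, an alternative added after seeing the data, SUS remained 1.36 times CON. With spots of at least 1000 UMIs it was 1.30.

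FB spots also had fewer genes. The median was 1940 genes per spot in CON (quartiles 1180 and 2784), 1810 in RES (1113 and 2374.25) and 2501 in SUS (2044 and 2970.5), against 4942, 4263 and 4475 in the other spots. Genes per spot rise with UMIs, so spots were also compared at matched UMIs, in bins of log2 UMIs 0.25 wide with at least 5 spots of both kinds. FB then had 0.936 times the genes of other spots in CON (interval 0.929 to 0.949, 261 FB spots in the bins). The value was 0.912 for RES (0.905 to 0.921, 196 spots) and 0.875 for SUS (0.868 to 0.889, 250 spots). The mean log2 ratio was −0.14 ± 0.05 (SD, n = 3), lower in 3 of 3 sections, with an exact sign-flip permutation p = 0.25 (0.3 adjusted over the 6 measures).

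Compared at matched UMIs with single regions, FB had fewer genes than CNU, which it borders over much of its length and which axon bundles cross. The ratio to CNU was 0.946 for CON (interval 0.937 to 0.972), 0.906 for RES (0.894 to 0.923) and 0.868 for SUS (0.863 to 0.882). Against TH it was 0.962, 0.948 and 0.938. HY came closest in CON, with 0.991 (0.982 to 1.01), an interval that includes 1, and the ratio to HY was 0.952 in RES and 0.931 in SUS. The bins held 124 CON, 135 RES and 208 SUS FB spots for CNU. They held 201, 135 and 176 for TH, and 93, 102 and 176 for HY. Each ratio thus covers only a part of FB, and not the same part for each region. Interior FB spots had fewer genes than border spots at matched UMIs as well, by a factor of 0.967 for CON (0.948 to 0.982), 0.950 for RES (0.931 to 0.967) and 0.984 for SUS (0.964 to 0.993).

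Between sections, SUS FB had 0.944 times the genes of CON FB at matched UMIs (interval 0.937 to 0.954) and RES FB 0.993 times, with an interval that includes 1. For the other spots these ratios were 0.998 and 0.994. The SUS ratio to CON turned to 1.005 in a single window of 3000 to 6000 UMIs, in which the SUS FB spots had a median of 4892.5 UMIs and the CON FB spots 4454.

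**Figure D4:**
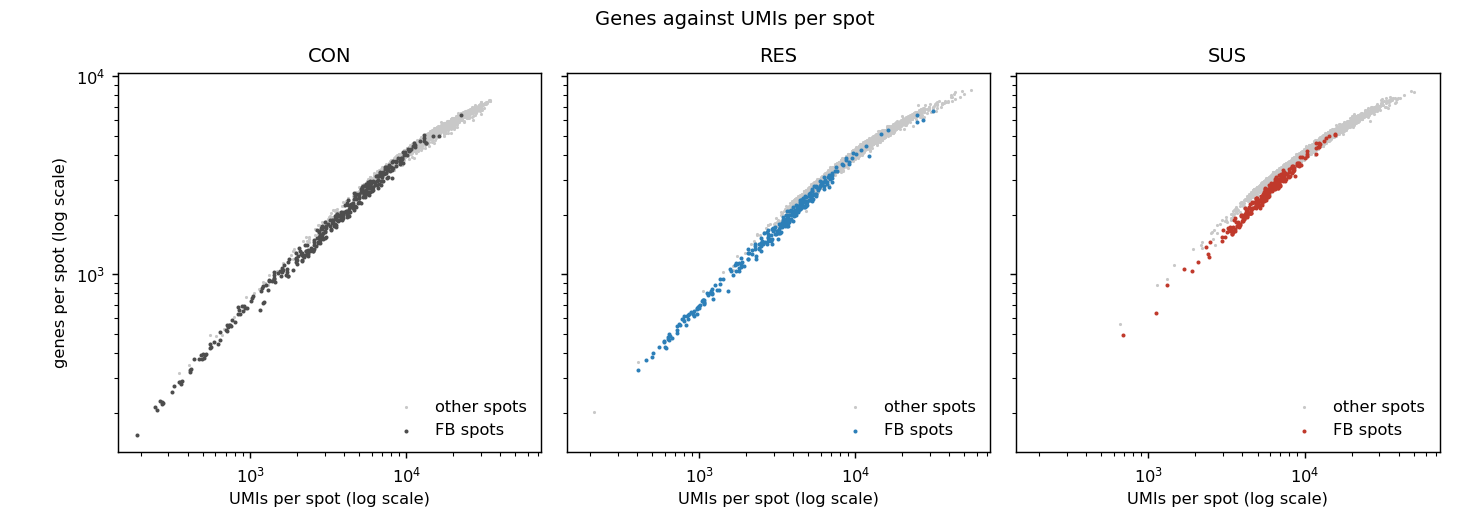
Genes per spot against UMIs per spot, both on log scales, for FB spots (coloured) and all other spots (grey) of each section. FB spots run along the lower edge of the cloud of other spots where both overlap, most clearly in SUS.

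Ribosomal protein transcripts, which encode the protein parts of the ribosome, took a larger share of UMIs in FB than in any of the other 10 regions in each section. The FB median was 10.9% for CON (quartiles 9.50 and 12.2), 11.2% for RES (9.77 and 12.7) and 12.0% for SUS (10.7 and 13.3), against 7.30%, 7.13% and 7.28% in the other spots. The ratio was 1.49 for CON (interval 1.43 to 1.55), 1.57 for RES (1.50 to 1.64) and 1.65 for SUS (1.60 to 1.69). The mean log2 ratio was 0.65 ± 0.07 (SD, n = 3), higher in 3 of 3 sections, with an exact sign-flip permutation p = 0.25 (0.3 adjusted). Next below FB were HY in CON (10.5%) and SUS (9.94%) and LV in RES (10.1%, 9 spots), and the FB quartiles overlap those of HY in CON and LV in RES.

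The share also varied with place inside FB. Interior spots had 11.4% in CON, 12.2% in RES and 12.4% in SUS, against 10.2%, 10.6% and 11.7% in border spots. The interval of the ratio lay above 1 in CON and RES and included 1 in SUS (0.994 to 1.13). FB spots touching HIP had the lowest median in CON, 8.66%, while those at TH had 12.2% there. In RES the spots at TH had 9.11%, the lowest of the 6, so the order of touched regions was not shared between sections. Across FB spots the share was lower where UMIs were higher, with Spearman's rho of −0.477 in CON, −0.426 in RES and −0.630 in SUS (n = 341, 286 and 267 spots of 1 section each, which share a library). In the window of 3000 to 6000 UMIs FB remained higher, with 11.0% against 8.61% in CON, 11.1% against 7.69% in RES and 12.8% against 7.72% in SUS.

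Mitochondrial transcripts, which come from the genome inside mitochondria, took a smaller share in FB than elsewhere. The FB median was 8.84% in CON (quartiles 7.58 and 10.7), 9.01% in RES (7.99 and 10.5) and 7.70% in SUS (6.75 and 8.84), against 10.7%, 9.77% and 8.13% in other spots. The ratio was 0.827 for CON (interval 0.782 to 0.873), 0.923 for RES (0.890 to 0.959) and 0.947 for SUS (0.875 to 0.994). The mean log2 ratio was −0.16 ± 0.10 (SD, n = 3), lower in 3 of 3 sections, with an exact sign-flip permutation p = 0.25 (0.3 adjusted). FB was not at an end of the order of regions: from the highest median down it was number 7 of 11 in CON, 5 in RES and 3 in SUS, where TH (10.7%) and HY (11.1%) were above it.

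In the window of 3000 to 6000 UMIs the gap in mitochondrial share was wider, with 8.50% in FB against 12.5% in other spots in CON, 9.02% against 10.7% in RES and 8.03% against 10.9% in SUS. Within FB the highest medians were found at HIP in CON (12.2%) and at HY in RES (11.5%) and SUS (9.14%). The lowest were at LV in each section, with 8.22%, 7.81% and 6.87%.

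**Figure D5:**
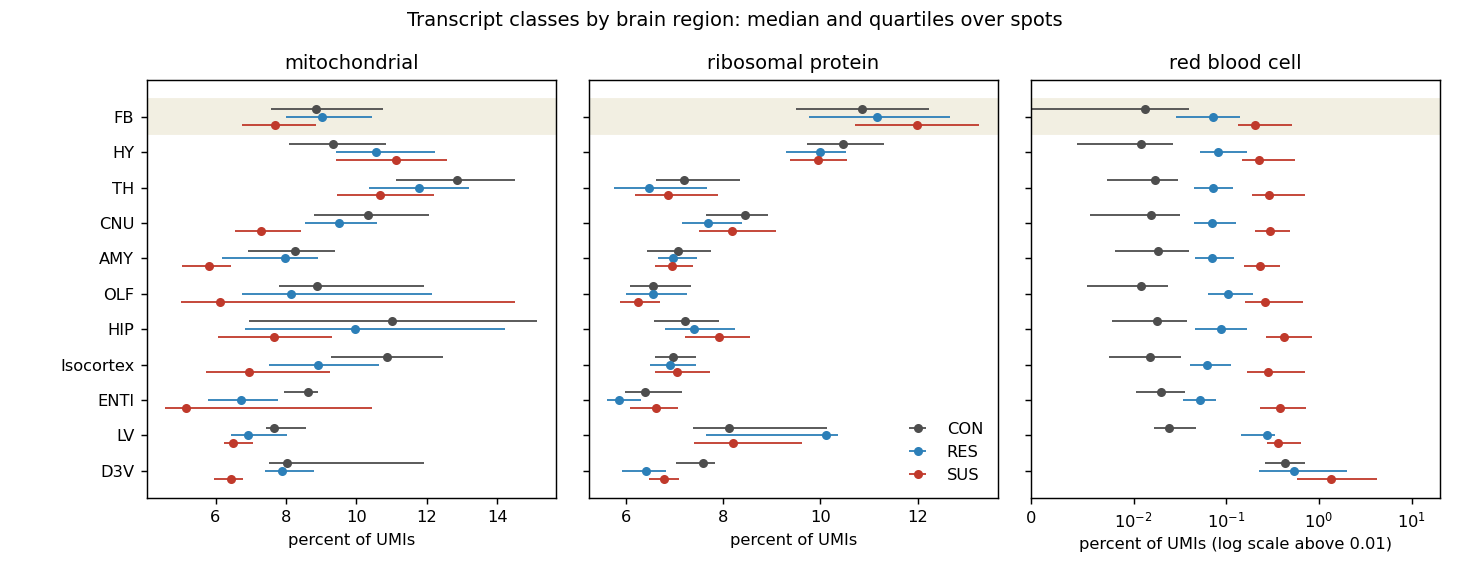
Share of UMIs, in percent, for 3 classes of transcripts by brain region and section (CON grey, RES blue, SUS red); points are medians and bars quartiles over spots, and the red blood cell axis is on a log scale above 0.01. FB has the highest ribosomal protein share in every section, and the red blood cell share rises from CON to RES to SUS in FB as in the other regions.

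Red blood cell transcripts, mainly those of haemoglobin, mark blood left in vessels. Their share in FB differed between sections by more than any other measure. The FB median was 0.0134% in CON (quartiles 0 and 0.0393), 0.0722% in RES (0.0288 and 0.140) and 0.204% in SUS (0.133 and 0.514). The other spots moved with them, from 0.0155% in CON to 0.0713% in RES and 0.289% in SUS. The ratio of medians, FB to other spots, was 0.866 for CON (interval 0 to 1.22), 1.01 for RES (0.831 to 1.14) and 0.704 for SUS (0.608 to 0.811), so the intervals of CON and RES include 1. The mean log2 ratio was −0.23 ± 0.26 (SD, n = 3), with an exact sign-flip permutation p = 0.5 (0.5 adjusted). The direction depended on the measure. In the window of 3000 to 6000 UMIs the ratio was 1.01 for CON (0.523 to 1.49), 0.624 for RES (0.411 to 0.871) and 0.424 for SUS (0.298 to 0.596). Means, which weigh the few spots with much blood, were higher in FB in each section, at 0.0908% against 0.0794% (CON), 0.392% against 0.253% (RES) and 1.01% against 0.822% (SUS). By medians, FB was the lowest of the 11 regions in SUS, with HY next (0.223%) and within its quartiles.

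No red blood cell transcript was listed in 152 of the 341 CON spots (44.6%), in 51 of the 286 RES spots (17.8%) and in 0 of the 267 SUS spots, which allows a share of up to 1.37% (upper exact bound). Of the other spots, 14.4% were at 0 in CON and 0.787% in RES. The spots at 0 had a median of 2335 UMIs in CON and 1291 in RES, against 5143 and 3888 in the FB spots above 0, so they were also the shallower ones. Above 1% were 4 CON, 13 RES and 40 SUS spots of FB. That is 1.17% (interval 0.321 to 2.98), 4.55% (2.44 to 7.65) and 15.0% (10.9 to 19.8) of FB, against 1.77%, 4.45% and 18.2% of the other spots. Of the 40 SUS spots 19 had another such FB spot beside them, in groups of at most 5. The red blood cell share and the UMIs of FB were thus both highest in SUS, and the part of the first in the UMI ratio was not tested. The SUS spots above 1% had a median of 5315.5 UMIs, below the 5599 of all SUS FB spots.

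A few low spots lay at the same place of the slide in all sections. The barcode of a spot gives its place on the grid, so equal barcodes in 2 sections are equal places and not shared cells. FB covered 12 common places in all 3 sections, 141 in RES and CON, 15 in SUS and CON, and 53 in SUS and RES. Of the 2321 places listed in all 3 sections, 6 had under 50% of the median UMIs of their listed neighbours in each of the 3, and 2 of these 6 were FB in at least 1 section. At array row 49 and column 103, an FB spot in CON, the spot had 4.25% of its neighbours' UMIs there, 4.95% in RES (labelled CNU) and 5.90% in SUS (labelled AMY, the amygdala). At row 38 and column 96, FB in CON and RES, it had 43.0%, 38.8% and 25.3%. Leaving out these places moved the FB median to 3746 UMIs for CON and 3528 for RES, and that of SUS stayed at 5599.

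Some places covered by tissue are not listed in the table although at least 5 of their neighbours are. Over the whole section these numbered 5 for CON, 3 for RES and 4 for SUS, of which 3, 1 and 2 had an FB neighbour, and 3 lay at the same place in all sections. One of these, at row 38 and column 88, was enclosed by 6 FB spots in RES and had 5 FB neighbours in SUS and 1 in CON. Another, at row 47 and column 77, was enclosed by 6 FB spots in SUS and had 0 FB neighbours in CON and RES. The unlisted places at row 57 and column 87 and at row 65 and column 77 were found in CON alone, with 6 and 5 FB neighbours, and both lay in band 5.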

How the data were processed

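Visium libraries of 3 coronal sections (1 CON, 1 RES, 1 SUS) were analysed. Per the study's methods, ST Pipeline was used on the reads, which were aligned to mm10, and the authors filtered in Seurat for genes with under 10 reads or in under 2 spots and for spots below 200 UMIs; 1 FB spot of the deposited table has fewer. Space Ranger 1.0.0, bcl2fastq and cutadapt are named in the submitters' processing notes. The authors assigned region labels from stained images, the Allen brain atlas and marker genes. The deposited count of UMIs per spot and of genes per spot is not normalized. The percent values were calculated by the authors on another total of UMIs, since the product of mitochondrial percent and deposited count was whole (within 0.001) in 0 of 894 FB spots, and 141 of 691 red blood cell percentages above 0 were smaller than 1 UMI of the deposited count would give. The sources used here do not give their gene lists, so they are compared as percentages only. Image scale factors were not used.

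Spots were joined to position lists by section and barcode. Totals were 37536349 UMIs (CON), 31196847 (RES) and 34979160 (SUS), of which FB held 1467421, 1142899 and 1588115. CTXsp is written AMY and Hip HIP. Neighbours are the 6 nearest grid places. The interval of a ratio of medians runs from the smallest to the largest quotient of both intervals' ends. The ratio at matched UMIs averages the log2 ratio of median genes over bins, weighted by FB spots, and its bounds are those of the median of the ratios of single spots. The only test was an exact two-sided sign-flip permutation test over the 3 sections, on 6 measures. No gene is named with a value, since none was analysed. The FB label, measures and comparisons were chosen with earlier results of these data known. Alternatives changed which spots were counted, mean against median, the neighbourhood, the matching of UMIs, the scaling and the sections used. Functions were first tested on simulated data. Computations used scipy 1.17.1, numpy 2.4.6 and pandas 2.3.3 in Python 3.11.15, and plots matplotlib 3.10.9.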

Additional observations from a re-analysis of the deposited data

Results flagged for a closer look

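The results given here went opposite ways in FB and in the other spots, or in FB of different sections. With 1 section per condition none of these differences was tested. Against CON, UMIs per spot in SUS were 1.51 times as high in FB and 0.841 times elsewhere. Genes per spot in SUS were 1.29 times CON in FB and 0.906 times elsewhere. The ribosomal protein percentage in SUS was 1.10 times CON in FB and 0.997 times elsewhere, where the interval includes 1. In RES it was 1.03 times CON in FB, with an interval that includes 1, and 0.976 times elsewhere. The mitochondrial percentage in RES was 1.02 times CON in FB, with an interval that includes 1, and 0.914 times elsewhere. Genes at matched UMIs in SUS were 0.951 times RES in FB and 1.01 times elsewhere. In the window of 3000 to 6000 UMIs the FB ratio was 1.04, on the same side as the other spots. FB spots in that window had a median of 4892.5 UMIs in SUS and 4273.5 in RES, so their UMIs were not equal. The red blood cell percentage of FB relative to other spots was 0.866 in CON, 1.01 in RES and 0.704 in SUS, with intervals that include 1 in CON and RES. The mitochondrial percentage of interior relative to border FB spots was 0.898 in CON, 0.933 in RES and 1.01 in SUS, with intervals that include 1 in CON and SUS.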

How the results depend on the processing

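Of 186 values recomputed under an alternative, 132 stayed within the interval of the reported value (or kept its sign, for the mean over sections). Another 52 left it, and 2 whose reported interval excluded 1 crossed 1. The cause was not tested where none is given. Of the 132, 24 kept only the largest connected group, which holds every FB spot in each section, so they could not differ. No paired analysis was possible because each group has 1 sample; this concerns the conditions, while FB and other spots of the same section were paired in the sign-flip test. Interior spots alone gave medians of 2738.5 (CON), 2505 (RES) and 5374 (SUS) UMIs, 1471.5, 1418.5 and 2366 genes, ribosomal protein percentages of 11.4, 12.2 and 12.4, mitochondrial percentages of 8.27 (CON) and 8.68 (RES), and red blood cell percentages of 0.0603 (RES) and 0.181 (SUS). With them the ratio of FB to other spots was 0.197 (CON) and 0.232 (RES), SUS/CON 1.96 and SUS/RES 2.15. With at least 1000 UMIs, which leaves out mostly CON and RES spots, medians rose to 4298.5 (CON) and 3899.5 (RES) UMIs and 2169.5 and 1990 genes, and FB shares were 10.4% (CON) and 8.83% (RES). Without the ends of the bundle medians were 4271 (CON) and 3961 (RES) UMIs. Means in place of medians were 4303, 3996 and 5948 UMIs, mitochondrial 9.23, 9.43 and 7.96% and red blood cell 0.0908, 0.392 and 1.01% (CON, RES, SUS), and without spots above 1% the SUS red blood cell median was 0.178%. Divided by the median of the other spots, RES/CON was 1.23 and SUS/CON 1.80. The RES/CON value thus crossed 1 from 0.952, whose interval includes 1, and is among the 52. For genes at matched UMIs against other spots, bins 0.5 wide gave 0.883 (RES) and 0.863 (SUS). The window of 3000 to 6000 UMIs gave 0.879 (CON), 0.811 (RES) and 0.824 (SUS), and other spots that do not touch FB 0.903 (RES). In the window FB spots had fewer UMIs than other spots, with medians of 4454 against 4884 (CON), 4273.5 against 5068 (RES) and 4892.5 against 5090 (SUS). Between sections, bins 0.5 wide gave 0.973 (RES/CON) and 0.975 (SUS/RES), and the window 0.962 (RES/CON), 1.005 (SUS/CON) and 1.04 (SUS/RES). For SUS/CON, bins 0.5 wide gave 0.937, so of these settings the window alone turned it. SUS FB spots in the window had a median of 4892.5 UMIs against 4454 for CON and 4273.5 for RES, and the cause was not tested. With 18 neighbours the adjacent share was 70.2% (CON), 70.2% (RES) and 67.4% (SUS), and of all places covered by tissue FB was 8.99%, 7.41% and 7.04%. Leaving out 1 section at a time gave a mean log2 ratio of FB to other spots between −1.76 and −1.34. With 1 section per condition, no setting bears on differences between animals, and FB spots of few UMIs carry the least precise percentages.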
